A study of Mus musculus with 5 samples.

Results

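The regions described here are 520 windows of 1 Mb on mouse chromosomes 1 to 19 in which no site of RNA polymerase II (RNA Pol II) passed a fixed threshold in embryonic fibroblasts. They are 22.4% of the 2323 windows that could be judged. Windows were laid from position 3 Mb of each chromosome, and 74 of 2397 whole windows were left out because the deeper extract library had under 1000 reads there. A window was taken as empty when none of its 500-bp bins held at least 10 RNA Pol II reads at a fold of at least 3 over extract, where 1 read was added to each count and libraries were scaled by their autosomal totals. Of the 894847 autosomal bins with at least 1 RNA Pol II read, 3.68% passed that threshold. The windows were thus chosen by RNA Pol II and extract reads, and the RNA Pol II values are a description that carries no test.

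The cells were secondary mouse embryonic fibroblasts carrying doxycycline-inducible Klf4, Sox2 and Oct4 cassettes. They descended from induced pluripotent cells injected into BDF2 blastocysts, were taken from chimeric embryos at 13.5 days post coitum and were kept for 48 hours in puromycin (2 µg/ml) to remove host cells. All 5 libraries share this origin and growth in 10% cosmic calf serum, and the labels name no doxycycline treatment. Each antibody had 1 library: 8WG16 for RNA Pol II, one for the Polycomb mark H3K27me3 (trimethylation of histone H3 on lysine 27) and one for the transcription factor E2F4, and 2 libraries of whole cell extract without antibody (WCE) served as background. Distinct autosomal reads numbered 3111606 for RNA Pol II, 9483163 for H3K27me3, 1971874 for E2F4, 417799 for WCE replicate 1 and 11226593 for WCE replicate 2. Per the file headers, E2F4, RNA Pol II and WCE replicate 1 came from one sequencing run and H3K27me3 and WCE replicate 2 from another, so each antibody library has an extract of its own run. Ratios to both extracts summed rest mainly on replicate 2, which holds 96.4% of their autosomal reads, and for E2F4 this is the extract of the other run. Without replicate libraries of an antibody there is no replicate spread, every interval covers counting error only, and chromatin came from many cells, so that a low level in all cells and a higher level in a few cannot be told apart.

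RNA Pol II transcribes protein-coding genes, and 8WG16 recognises the repeats at the C-terminus of its largest subunit. H3K27me3 is written by Polycomb repressive complex PRC2 and marks silent developmental genes, often as broad domains. E2F4 works mostly as a repressor of cell cycle genes and binds near promoters. Long stretches of a mammalian genome hold few genes, are packed as heterochromatin at the nuclear lamina and replicate late. Reads are on mouse build mm8, for which no gene annotation or genome sequence was used here, so no gene is named and no sequence is shown.

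RNA Pol II reads in the empty windows ran from 70 to 1840 per window with a median of 174, where the other 1803 windows had a median of 1193. The highest bin at the required fold held only 2 or 3 reads in 454 of the 520 windows and 5 or more in 36, so most of them lay far below the threshold of 10 reads. Just inside it were 8 windows whose highest bin had 9 reads, among them chromosome 1 from 35000001 to 36000000 with 345 RNA Pol II reads in all and chromosome 7 from 61000001 to 62000000 with 194. Just outside lay 4 windows with a single bin of 10 reads, such as chromosome 9 from 5000001 to 6000000 with 124 RNA Pol II reads and chromosome 6 from 144000001 to 145000000 with 541. With WCE replicate 1, the extract of the RNA Pol II run, as the only background, 570 windows were empty, among them 519 of the 520. In 11 empty windows, 27 bins held 10 or more RNA Pol II reads and missed the fold.

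The first question was what else was low in these windows. H3K27me3 reads ranged from 522 to 8442 per empty window with a median of 1106.5, against a median of 4276 in the other windows. Their mean per window was 0.291 of that of the other windows (95% interval 0.290 to 0.292), and 93.1% of the empty windows lay below the lower quartile of the others. E2F4 reads ranged from 133 to 2264 with a median of 419.5, against 871 in the other windows, and their mean was 0.472 of the others (0.470 to 0.474). Both marks were lower in the empty windows on each of the 19 chromosomes.

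The extract itself moved with the windows. WCE replicate 2 had a median of 1696 reads per empty window against 5407 elsewhere, a mean of 0.366 of the others, and 93.3% of the empty windows lay below the lower quartile of the others. WCE replicate 1 had medians of 184 and 175 and a mean in empty windows at 1.04 of the others. Empty windows made up 84.3% of the windows with 1000 to 1500 WCE replicate 2 reads, 70.9% of those with 1500 to 2000 and 2.34% of those with at least 4000. H3K27me3 was thus lower by more than the extract of its run, and E2F4 was lower while the extract of its run was nearly level. Why the WCE libraries differ was not tested.

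**Figure D1:**
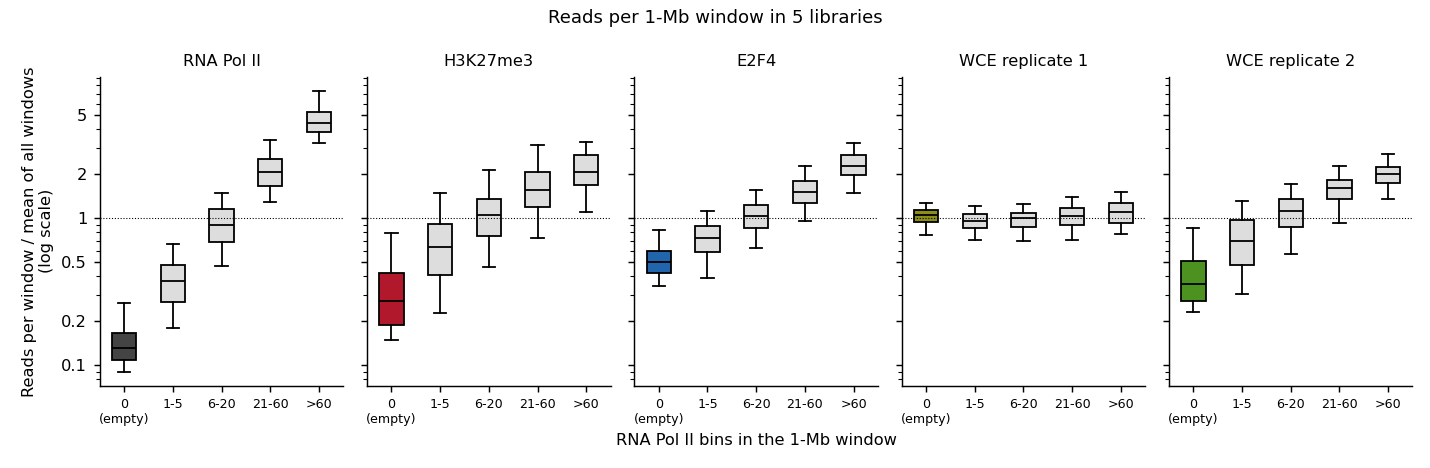
Reads per 1-Mb window in each library, divided by that library's mean over all 2323 windows (log scale), for windows with 0 RNA Pol II bins (coloured) and with 1-5, 6-20, 21-60 and over 60 bins (grey). Boxes show quartiles and the median, whiskers the 5th and 95th percentiles; 4 libraries rise with the number of RNA Pol II bins and WCE replicate 1 stays near 1.

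The low read numbers belonged to a gradient. Median H3K27me3 reads were 1106.5 in empty windows, 2575 in the 490 windows with 1 to 5 RNA Pol II bins, 4222.5 in the 830 windows with 6 to 20, 6275 in the 387 with 21 to 60 and 8392 in the 96 with more than 60. The E2F4 medians over the same classes were 419.5, 614, 869, 1257 and 1910.5, and those of WCE replicate 2 were 1696, 3340, 5376.5, 7632 and 9607.5. In WCE replicate 1 the medians stayed between 169 and 194.5 and had no such order.

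Set against both WCE libraries, H3K27me3 in the empty windows stood at a ratio of 0.773 (0.770 to 0.775) and in the other windows at 1.03 (1.03 to 1.03), a quotient of 0.752 (0.750 to 0.754). Single empty windows ranged from 0.515 to 2.08 with quartiles of 0.617 and 0.800. The interval of the ratio lay wholly under 1 in 476 of them, held 1 in 26 and lay wholly above 1 in 18. In the other windows 56.1% had an interval wholly under 1 and 32.6% wholly above. The quotient was under 1 on 19 of 19 chromosomes, but on chromosome 17 it was 0.998 (0.983 to 1.01), where a difference was not detectable. The sums on chromosome 17 include the windows from 85000001 and 39000001, with 8442 and 6614 H3K27me3 reads. The median ratio of its 17 empty windows was 0.713, beside 0.691 over all empty windows. Against WCE replicate 2 alone, the extract of the same run, the ratio in empty windows was 0.811 (0.808 to 0.813) and the quotient 0.794 (0.792 to 0.797), under 1 on 18 chromosomes and 1.05 (1.03 to 1.06) on chromosome 17. Against replicate 1 alone the ratio was 0.340 and the quotient 0.280. Scaling on background bins in place of totals turned the ratio itself to 1.02, whereas the quotient does not depend on scaling.

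For E2F4 the direction turned with the extract. Against WCE replicate 1, of the same run, the ratio was 0.525 (0.521 to 0.529) in the empty windows and 1.16 (1.15 to 1.16) in the others, a quotient of 0.454 (0.450 to 0.457) that was under 1 on 19 of 19 chromosomes. Its interval lay wholly under 1 in 460 of the 520 windows, held 1 in 49 and lay wholly above 1 in 11. Against both extracts summed the ratio was 1.19 (1.19 to 1.20) in the empty windows and 0.977 (0.975 to 0.979) in the others, a quotient of 1.22 (1.21 to 1.23) that was above 1 on 19 of 19 chromosomes. Here the interval lay wholly above 1 in 376 windows, held 1 in 97 and lay wholly under 1 in 47. No direction of E2F4 relative to extract can therefore be given for these windows. The E2F4 ratios that follow are to both extracts unless replicate 1 is named. They order windows on that background only. Along extract reads and run length, given below, the ratio to replicate 1 went the opposite way.

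**Figure D2:**
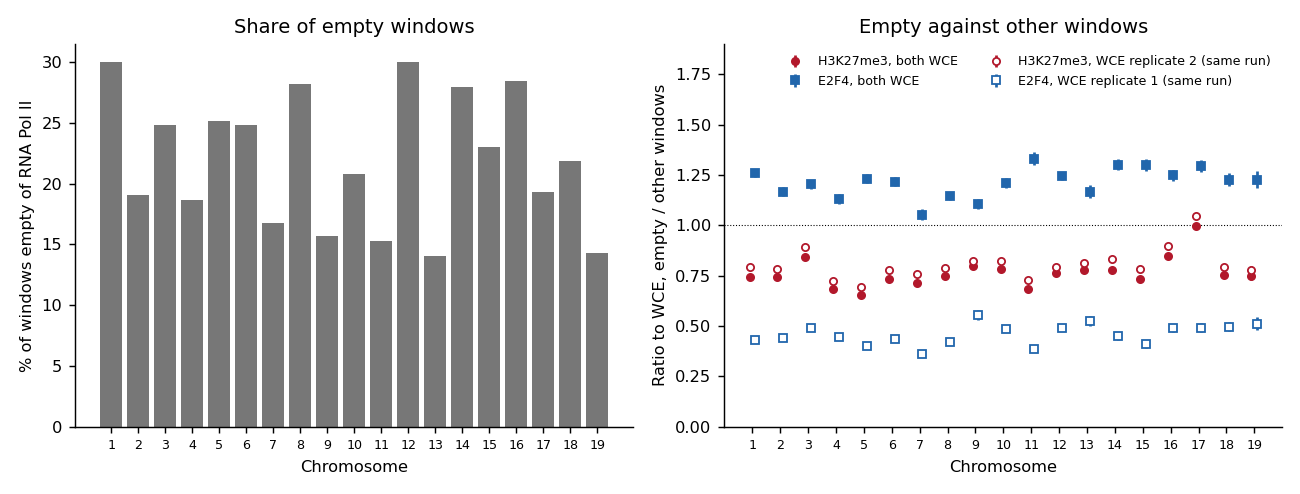
Left, the share of windows empty of RNA Pol II on each autosome. Right, the ratio to both WCE libraries in empty windows divided by that in the other windows, with 95% counting intervals (filled), and the same with the extract of the same run (open). Filled points lie between 0.654 and 0.998 for H3K27me3 and between 1.05 and 1.33 for E2F4; open points lie between 0.695 and 1.05 for H3K27me3 and between 0.361 and 0.555 for E2F4.

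Both ratios followed the WCE read number of the window. Among empty windows with 1000 to 1500 WCE replicate 2 reads, 204 in number, the median H3K27me3 ratio was 0.602 and the median E2F4 ratio 1.42. Among the 31 empty windows with at least 4000 reads these medians were 0.929 and 0.910. The other windows showed the same order, with 0.698 and 1.29 in the 38 that had 1000 to 1500 reads and 0.970 and 0.916 in the 1292 that had at least 4000. When the other windows were weighted to the WCE read numbers of the empty ones, a comparison added after the data were seen, the H3K27me3 quotient was 0.911 (0.909 to 0.913) and the E2F4 quotient 1.01 (1.00 to 1.01). At matched extract reads the H3K27me3 difference was thus smaller and kept its direction. Against WCE replicate 1 the E2F4 median was 0.379 in the 204 empty and 0.424 in the 38 other windows of 1000 to 1500 reads, and 1.04 and 1.24 in those of at least 4000, so it rose along the classes where the ratio to both extracts fell.

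**Figure D3:**
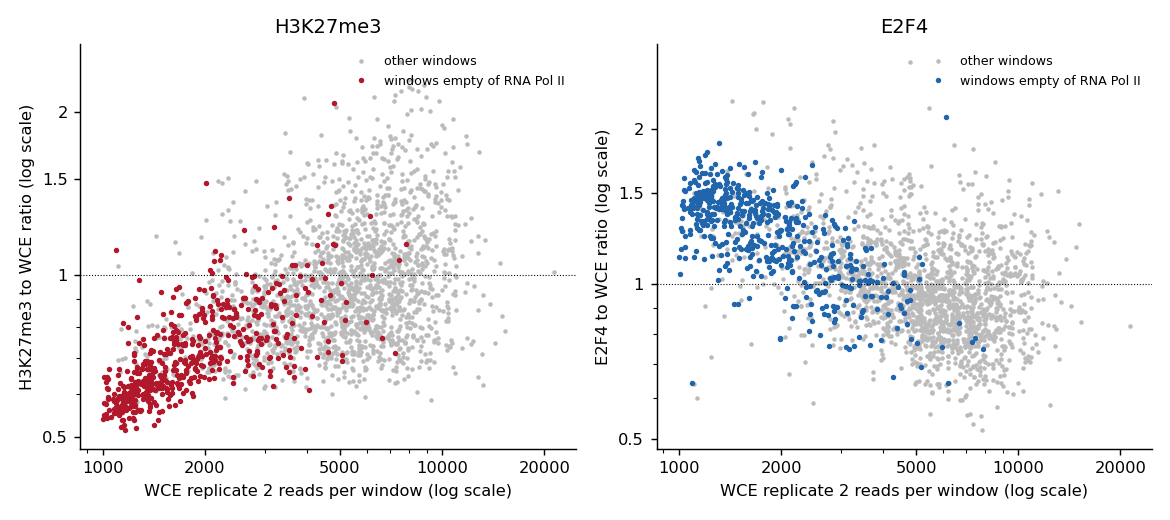
Ratio of H3K27me3 (left) and E2F4 (right) to both WCE libraries in each 1-Mb window against its WCE replicate 2 reads, both on log scales, with empty windows in colour over the other windows in grey. WCE reads enter both axes; the H3K27me3 ratio rises and the E2F4 ratio falls along the axis in both kinds of window.

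Enriched H3K27me3 was scarce in the empty windows but not absent. Bins of 2 kb were called at an adjusted p under 0.01 (exact conditional binomial test against WCE, Benjamini-Hochberg adjustment) and a fold of at least 3, which 2.23% of 1078796 tested bins reached genome-wide. In the empty windows 431 of 200202 tested bins were called, 0.215%, and in the other windows 23405 of 820694, 2.85%. The count depends on the background: WCE replicate 2 alone, of the same run, gave 416 called bins in these windows, 410 of them among the 431. The shallow replicate 1 alone gave 4, none of them among the 431. These 4 lay in the only window of the 520 that is not empty on replicate 1. The 570 windows empty on replicate 1 held 0. With all 431 among them, 789 bins were called when libraries were scaled on background and 937 at 10 reads and a fold of 3. At least 1 called bin lay in 121 empty windows, 23.3%, whereas 64.6% of all windows and 76.5% of the other windows had one. No called bin held under 11 H3K27me3 reads, so a window with few reads has less power to give one. In windows of 1000 to 1500 WCE replicate 2 reads a called bin was found in 7.35% of the empty and 26.3% of the other windows, and in those of at least 4000 in 58.1% and 86.0%.

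The calls were concentrated in a few windows. Of the 121 windows, 100 had only 1 to 3 called bins, and 10 windows with 10 or more held 184 of the 431 bins, 42.7%. Such windows were 1.92% of the empty and 34.7% of the other windows. Joined over gaps of at most 1 bin, the calls made 207 regions that lay wholly in empty windows, 2.33% of the 8879 on the autosomes. Their median length was 2000 bp, as for the other regions, and 14 of them were 10 kb or longer, 6.76% against 16.1% elsewhere.

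Chromosome 17 from 85000001 to 86000000 carried most H3K27me3, with 8442 reads against 182 and 4811 in the WCE replicates, a ratio of 2.08 (2.00 to 2.15) and 46 called bins. It held 368 RNA Pol II reads, of which no bin at the required fold had over 3, and 787 E2F4 reads at a ratio of 0.931 (0.862 to 1.00). The next 4 windows by the lower limit of the ratio were chromosome 9 from 91000001 to 92000000 at 1.48 (1.40 to 1.56) with 19 called bins, chromosome 2 from 147000001 to 148000000 at 1.39 (1.33 to 1.45) with 18, chromosome 14 from 22000001 to 23000000 at 1.34 (1.29 to 1.39) with 13 and chromosome 14 from 57000001 to 58000000 at 1.29 (1.24 to 1.35) with 13. All 5 stood alone, with no empty window next to them.

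The longest H3K27me3 region inside empty windows ran for 28 kb on chromosome 2 from 147718001 to 147746000. Regions consist of bins called by their H3K27me3 ratio, so high values of that ratio are set by the selection. It held 1312 H3K27me3 reads against 188 WCE reads, a ratio of 8.57 (7.35 to 10.04), with 16 RNA Pol II and 26 E2F4 reads at ratios of 0.318 and 0.817. Chromosome 17 followed with 85512001 to 85538000, 26 kb at 9.48 (8.18 to 11.03), and with 85586001 to 85606000, 20 kb at 8.73 (7.30 to 10.5). The others of the 5 longest were chromosome 8 from 15018001 to 15040000, 22 kb at 5.20 (4.47 to 6.06), and chromosome 13 from 117414001 to 117436000, 22 kb at 6.44 (5.39 to 7.74). Their E2F4 ratios lay between 0.402 and 1.07, and 4 of the 5 intervals held 1.

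At the other end, the 5 windows with the lowest H3K27me3 by the upper limit had no called H3K27me3 bin and ratios of 0.515 to 0.528. Chromosome 1 from 116000001 to 117000000 held 567 H3K27me3, 336 E2F4, 137 RNA Pol II, 192 WCE replicate 1 and 1160 WCE replicate 2 reads, a H3K27me3 ratio of 0.515 (0.466 to 0.568). Chromosome 16 from 83000001 to 84000000 stood at 0.520 (0.473 to 0.572) and carried 1 called E2F4 bin. The remaining ones began at 72000001 on chromosome 3 with a ratio of 0.523 (0.474 to 0.577), at 61000001 on chromosome 5 with 0.527 (0.477 to 0.581) and at 101000001 on chromosome 8 with 0.528 (0.482 to 0.577). Each of these 5 windows lay in a run of 5 or 6 empty windows, unlike the 5 at the top.

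Inside the 431 called H3K27me3 bins most other libraries were denser than in the rest of the same windows, and WCE replicate 1 was less dense. E2F4 reads were 2.22 times as dense (2.08 to 2.37) and those of WCE replicate 2 were 2.51 times, while WCE replicate 1 stood at 0.768 (0.635 to 0.922). Relative to both WCE libraries E2F4 was at 1.04 (0.969 to 1.11) in these bins, and relative to WCE replicate 1 at 1.80 (1.49 to 2.21). RNA Pol II, which the rule keeps low, was 2.55 times as dense. It was at 0.327 of both extracts, close to the 0.332 of the whole windows. Against WCE replicate 1, the extract of its run, it was at 0.568 (0.463 to 0.702), where the whole windows were at 0.146. In H3K27me3 bins of the other windows E2F4 was at 0.972 of the rest of the window, WCE replicate 2 at 1.14 and RNA Pol II at 0.445.

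Narrow E2F4 sites were almost missing. Genome-wide 0.735% of 1176921 tested 500-bp bins were called for E2F4 by the same test, and in the empty windows 45 of 188072, 0.0239%. Those 45 bins lay in 42 windows, 8.08% of the empty ones, with 1 bin in 39 windows and 2 bins in 3. A called E2F4 bin was found in 69% of all windows and 86.6% of the other windows. In windows of 1000 to 1500 WCE replicate 2 reads the shares were 5.39% of the empty and 50% of the other windows, and in windows of at least 4000 reads 25.8% and 93.0%.

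Most of these bins were weak. Only 9 of the 45 held 10 or more E2F4 reads, 20%, against 95.6% of the 8360 bins called in the other windows, and 24 had no WCE read at all, 53.3% against 0.873%. Summed, they held 353 E2F4 reads and 170 WCE reads where, scaled by totals, E2F4 stood at 12.3 times WCE (10.2 to 14.8), and at 12.9 in the other windows. Against WCE replicate 1 alone these were 3.74 (2.38 to 6.20) and 102.5. Both sets of bins were called by their ratio to both extracts. The height of that ratio is therefore set by the selection, and 12.3 beside 12.9 does not show equal enrichment. RNA Pol II reads numbered 69 in these bins, with none in 29 of them. They stood at 1.52 of both extracts (1.13 to 2.02), whereas in the E2F4 bins of other windows RNA Pol II stood at 16.5. Against WCE replicate 1, the extract of the RNA Pol II run, these values were 0.463 (0.278 to 0.805) and 131. No direction of RNA Pol II relative to extract can thus be given for the 45 bins, and their RNA Pol II reads are limited by the rule. An adjusted p under 0.0001 left 3 of the 45 bins. With WCE replicate 2 alone 24 bins were called in these windows, 23 of them among the 45, and with replicate 1 alone 9, none of them among the 45. These 9 lay in the only window of the 520 that is not empty on replicate 1. The 570 windows empty on replicate 1 held 0. With repeats of a position kept 168 were called, 31 of them among the 45, so that single sites are uncertain.

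The 3 bins at the stricter threshold, named after their values were seen, were chromosome 1 from 143246001 to 143246500, chromosome 16 from 86229501 to 86230000 and chromosome 16 from 67539001 to 67539500. The first held 9 E2F4 reads and none of RNA Pol II, H3K27me3 or WCE, which puts the lower limit of its ratio at 11.7. The bin at 86229501 held 11 E2F4 reads, 0 RNA Pol II, 1 H3K27me3 and 1 WCE read, with a lower limit of 9.44. The bin at 67539001 had 22 E2F4, 1 RNA Pol II, 16 H3K27me3 and 9 WCE reads, an E2F4 ratio of 14.4 (6.39 to 35.6). The others among the 5 E2F4 regions with the highest lower limits were chromosome 10 from 102251001 to 102251500 and chromosome 16 from 83581501 to 83582000, each with 6 E2F4 reads, none of WCE and a lower limit of 6.95.

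Some E2F4 bins lay in H3K27me3 bins, 5 of 45 or 11.1%, against 1.61% of the E2F4 bins of the other windows. Of all tested 2-kb bins, 0.215% were called for H3K27me3 in the empty and 2.85% in the other windows. The rule leaves out windows with RNA Pol II bins, so the E2F4 bins compared differ in RNA Pol II by selection. The comparison was not tested and rests on 5 bins. Besides the bin at 67539001 these were chromosome 17 from 85596501 to 85597000, chromosome 6 from 14851001 to 14851500, chromosome 4 from 110912501 to 110913000 and a site of 1000 bp on chromosome 8 from 15011501 to 15012500 of which one bin counted. The site on chromosome 17 held 9 E2F4, 25 H3K27me3, 3 RNA Pol II and 2 WCE reads and lay in the window richest in H3K27me3. The site on chromosome 8 held 23 E2F4, 80 H3K27me3, 4 RNA Pol II and 21 WCE reads. In windows the marks combined as both in 11, H3K27me3 alone in 110, E2F4 alone in 31 and neither in 368, 70.8% of the empty windows.

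By E2F4 ratio over the whole window, chromosome 17 from 39000001 to 40000000 came first at 2.11 (2.01 to 2.22). It also had the most RNA Pol II reads of the empty windows, with 1840 RNA Pol II, 2264 E2F4, 6614 H3K27me3, 191 WCE replicate 1 and 6134 WCE replicate 2 reads. Against both extracts it had no called bin of either mark. Of its bins 11 had 10 or more RNA Pol II reads. The highest, from 39456001 to 39456500, had 240 RNA Pol II, 138 E2F4 and 609 H3K27me3 reads. Against these stood 1 read of WCE replicate 1 and 502 of WCE replicate 2, an RNA Pol II fold of 1.79 over both. Only the required fold over both extracts makes this window count as empty. With WCE replicate 1, the extract of the RNA Pol II run, as the only background, it is not empty. It then holds the 9 E2F4 and 4 H3K27me3 bins called on that extract. In WCE replicate 2, 38.1% of its lines are placed at 2 positions. The next 4 by the lower limit were chromosome 11 from 38000001 to 39000000 at 1.88 (1.69 to 2.08), chromosome 8 from 39000001 to 40000000 at 1.81 (1.62 to 2.01), chromosome 10 from 49000001 to 50000000 at 1.78 (1.59 to 1.99) and chromosome 11 from 111000001 to 112000000 at 1.70 (1.57 to 1.85). None had a called bin. These 4 windows held 489, 430, 413 and 769 E2F4 reads. WCE replicate 1 had 226, 192, 177 and 193 reads there, and WCE replicate 2 had 1312, 1213, 1192 and 2473. The ranking is by the ratio to both extracts, which rests mainly on replicate 2. No ranking against replicate 1 was made.

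The second question was how the windows group. They formed 295 runs of neighbouring windows, of which 180 were single windows, 57 held 2 windows, 32 held 3, 11 held 4 and 15 held 5 or more. Runs of at least 2 windows held 340 of the 520, 65.4%. Of 1014 neighbours of empty windows, each counted once per empty window it borders, 450 or 44.4% were empty themselves, against 16.1% of the neighbours of other windows and 22.4% of all windows. The 509 other windows that bordered an empty one had a median of 7 RNA Pol II bins, and the 1294 that did not had a median of 13.

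**Figure D4:**
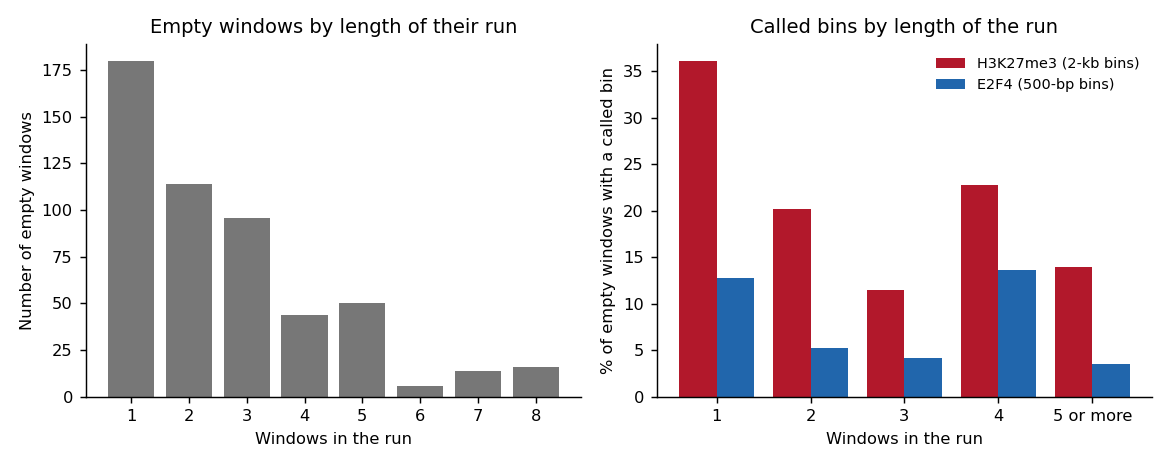
Left, the number of empty windows by the length of the run they lie in, from 180 in runs of 1 to 16 in runs of 8. Right, the share of empty windows with at least 1 called H3K27me3 or E2F4 bin by length of the run; H3K27me3 is found in 36.1% of single windows and 14.0% of those in runs of 5 or more.

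The longest runs were 8 windows on chromosome 5 from 79000001 to 87000000 and 8 on chromosome 14 from 105000001 to 113000000. The run on chromosome 5 had between 727 and 2043 H3K27me3 reads and between 310 and 501 E2F4 reads per window, with ratios of 0.671 (0.654 to 0.689) and 1.07 (1.02 to 1.11) over the run. On chromosome 14 the ranges were 655 to 1242 and 313 to 455, with ratios of 0.634 (0.616 to 0.654) and 1.41 (1.35 to 1.46). Runs of 7 lay on chromosome 1 from 100000001 to 107000000, with ratios of 0.635 and 1.47, and on chromosome 6 from 74000001 to 81000000, with 0.699 and 1.22. The run of 6 on chromosome 8 from 99000001 to 105000000 had 0.623 and 1.53. These 5 runs held 36 windows with 9 called H3K27me3 bins and 1 called E2F4 bin among them, and no RNA Pol II bin at the required fold exceeded 3 reads.

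Long gaps were also measured without the grid of windows. Between neighbouring RNA Pol II bins that passed the threshold there were 507 stretches of 1 Mb or more, with a median of 1.66 Mb, and 23 of 5 Mb or more. Together they covered 1083 Mb, 44.0% of the autosomes up to their last read. That span includes the first 3 Mb of each chromosome and sequence with few or no extract reads, which the windows leave out. The 44.0% is thus not comparable with the 22.4% of judged windows. The longest ran for 9.14 Mb on chromosome 14 from 104785001 to 113922500 and held 175.7 RNA Pol II, 888 H3K27me3, 391 E2F4, 206 WCE replicate 1 and 1457 WCE replicate 2 reads per Mb. The next lay on chromosome 6 from 73178501 to 81889000, 8.71 Mb, and on chromosome 5 from 78535001 to 87139500, 8.60 Mb.

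H3K27me3 was lower in windows of longer runs, and so was WCE replicate 2. Run lengths were not compared at equal extract reads. By WCE replicate 2 reads alone, empty windows of 1000 to 1500 reads had a median H3K27me3 ratio of 0.602, and 7.35% had a called H3K27me3 bin. Those of 2000 to 3000 reads had 0.791 and 33.3%. Whether run length adds to this was not tested. Median H3K27me3 reads were 1749 in single windows, 1061.5 in runs of 2, 1017.5 in runs of 3, 878.5 in runs of 4 and 756 in runs of 5 or more, while WCE replicate 2 went from 2394.5 to 1337 and WCE replicate 1 from 170 to 200. The median H3K27me3 ratio was 0.774 in single windows (quartiles 0.685 and 0.905) and 0.607 in runs of 5 or more (0.573 and 0.678). E2F4 medians were 483, 393, 401, 420 and 364.5 reads over the same classes, with no steady order, and median ratios went from 1.13 to 1.41 against both extracts but from 0.599 to 0.395 against WCE replicate 1. A called H3K27me3 bin lay in 65 of 180 single windows, 36.1%, and in 12 of 86 windows of runs of 5 or more, 14.0%. For E2F4 these were 23 windows, 12.8%, and 3 windows, 3.49%. The shares did not fall steadily, since runs of 4 had H3K27me3 bins in 22.7% and E2F4 bins in 13.6% of 44 windows.

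**Figure D5:**
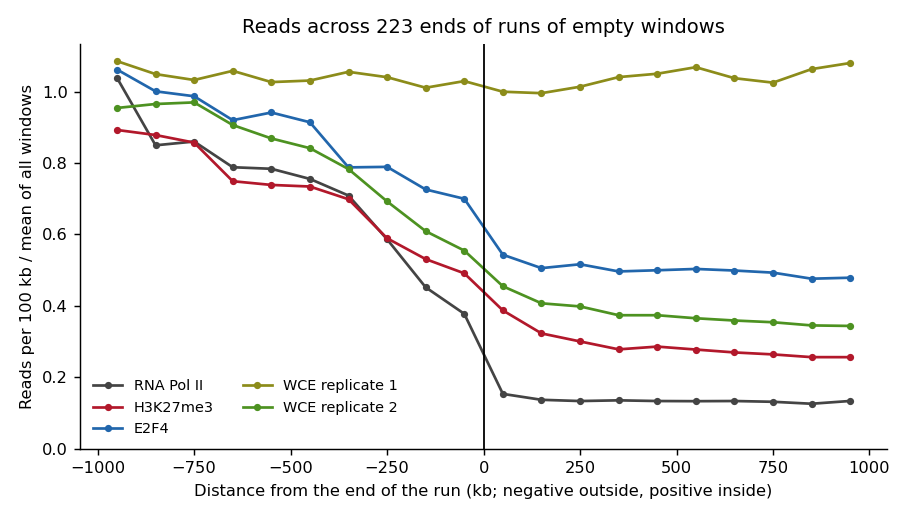
Reads per 100 kb across 223 ends of runs of at least 2 empty windows, divided by the mean of all windows in each library, with distance from the end on the horizontal axis (negative outside the run). RNA Pol II, H3K27me3, E2F4 and WCE replicate 2 fall from outside to inside and WCE replicate 1 stays near 1.

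Across the ends of runs, reads were already lower in the last steps outside. Run ends are borders of the 1-Mb grid and not the last RNA Pol II bin, so where a decline begins cannot be read here. On chromosome 14 the run ended at 113000000, while the stretch without an RNA Pol II bin reached 113922500. At 900 to 1000 kb outside, H3K27me3 stood at 0.893 of its mean, E2F4 at 1.06 and WCE replicate 2 at 0.954, and in the last 100 kb outside at 0.491, 0.700 and 0.555. In the first 100 kb inside they stood at 0.387, 0.543 and 0.455, and 900 to 1000 kb inside at 0.257, 0.479 and 0.344. Beyond the first 100 kb inside, E2F4 lay between 0.476 and 0.517, while H3K27me3 went from 0.323 to 0.257. RNA Pol II, by the rule, went from 0.378 in the last step outside to 0.154 in the first step inside, and WCE replicate 1 lay between 0.996 and 1.09 over all 20 steps. Within runs of 3 or more, the 110 inner windows had a median of 767 H3K27me3 reads and the 116 end windows 975.5. Called H3K27me3 bins went the other way, with at least 1 in 19 inner windows, 17.3%, and in 14 end windows, 12.1%.

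Chromosomes differed in their share of empty windows, from 14.0% on chromosome 13 and 14.3% on chromosome 19 to 30% on chromosomes 1 and 12, with a median of 21.8%. Over the 19 autosomes the share ran against the number of protein-coding genes per Mb (genes of GRCm38.p6, counted per chromosome only), with Pearson's r of -0.678 and Spearman's rho of -0.642. Chromosomes share libraries and differ in read density, so these values are a description. Chromosomes 13 and 14 had nearly the same gene density, 6.87 and 6.86 per Mb, and 14.0% and 27.9% of empty windows.

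In empty windows a larger share of lines, though fewer lines, came from reads that the deposited lists place at 2 positions. Repeats of a position were kept among these lines but dropped from the single-placement reads they were added to. The shares are therefore higher than with repeats kept in both. In the library of WCE replicate 2, a median of 6.28% of a window's lines were of this kind (quartiles 4.33% and 8.93%), against 3.61% in the other windows (2.71% and 5.57%). The mean number of such lines per window was 157.3 in empty and 314.5 in other windows. The median shares for H3K27me3 were 7.07% and 3.85% and for E2F4 15.8% and 10.05%. WCE replicate 1 had 40.4% and 40.2%, with no such difference. The highest share, 68.2%, was in chromosome 4 from 79000001 to 80000000, which had 1080 single-placement reads of WCE replicate 2 and lay near the minimum.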

How the data were processed

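The deposited files list read positions signed by strand. Per the file headers, the authors aligned reads to mm8 with bowtie (-e 70, -k 2, -m 2, -n 2, with -l 26 or -l 36); no version is named there. From the section of reads with 1 placement, repeats of a position on a strand were dropped. A negative position was read as the leftmost base, and -l (26 or 36 bp) served as the read length. The 5′ ends were moved 60 bp downstream and counted in 500-bp bins (2 kb for H3K27me3 calls). The other section, with 2 lines per read, was used only where said. Ratios divide a library's share of autosomal reads by that of WCE, with exact (Clopper-Pearson) 95% intervals. Quotients of 2 ratios have log-scale normal intervals in place of the planned exact ones, which could not be computed at these counts. Libraries were amplified without molecular identifiers, so reads need not be independent molecules. A count of 0 allows up to 0.000152% of the autosomal E2F4 reads and 0.000718% of those of WCE replicate 1 (3 counts of the total). The rule for the windows, the lists and the tests were chosen with earlier results of these data known. Named regions are the 5 longest runs, the 5 longest H3K27me3 and 5 highest E2F4 regions, and windows beside the threshold. Also named are the 5 windows highest and lowest in H3K27me3 and highest in E2F4. Their ratios are to both extracts, taken at the limit nearest 1. The caller was tested on simulated data. Alternatives covered the WCE library, the WCE of the same sequencing run (named in the file headers, added after the data were seen), scaling, repeats, window size and place, RNA Pol II and WCE minimums, the shift and the call threshold. Python 3.11.15, numpy 2.4.6, scipy 1.17.1 and matplotlib 3.10.9 were used. Chromosomes X and Y entered only the calls.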

Additional observations from a re-analysis of the deposited data

Results flagged for a closer look

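Reads listed at 2 places, which the rule for the windows leaves out, carried signal above WCE in some of the empty windows. Under the same threshold of 10 reads and a fold of 3, computed on these lines alone, 86 of the 520 empty windows (16.5%) had an RNA Pol II bin, against 51.4% of the other windows. For E2F4 the number was 13 (2.5%, against 13.0% elsewhere) and for H3K27me3 10 (1.92%, against 21.1%). With WCE replicate 2 alone as background these were 80, 13 and 9 windows, and with the extract of the same run 90, 20 and 9. Which of the places such a read came from is not resolved.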

How the results depend on the processing

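Over the alternatives tried, the quotient of H3K27me3 between empty and other windows stayed under 1, from 0.279 with the rule on WCE replicate 2 and the marks on replicate 1 to 0.911 within classes of WCE reads. No result moved past its limit when windows were shifted by 500 kb, when 5 RNA Pol II reads or no fold were required, without the 60-bp shift, or when negative positions were read as 5′ ends, the last added after the data were seen. Leaving out 1 WCE library gave E2F4 ratios of 0.536 to 1.25 and quotients of 0.458 to 1.29, 0 to 417 H3K27me3 bins and 0 to 24 E2F4 bins; WCE replicate 1, used alone, is shallow. With each antibody, the rule included, on the WCE of its own run, added after the data were seen, 570 Mb were empty, the H3K27me3 ratio was 0.825 with 514 bins, and the E2F4 ratio was 0.536, its quotient 0.458, with 0 bins. With the rule on WCE replicate 2 and the marks on replicate 1, the E2F4 ratio was 0.525, its quotient 0.453, and 4 H3K27me3 and 9 E2F4 bins were called. Scaling on background bins gave a H3K27me3 ratio of 1.02 and 789 bins. Windows of 500 kb covered 853.5 Mb, with 79.3% next to another, 1598 H3K27me3 and 104 E2F4 bins. A minimum of 3000 WCE replicate 2 reads left 80 Mb, 2.5% of windows next to another, 227 H3K27me3 and 18 E2F4 bins and an E2F4 ratio of 0.971; it keeps only windows rich in extract reads. An adjusted p under 0.0001 gave 276 and 3 bins, and at least 10 reads with a fold of 3 gave 937 and 19. Keeping repeats of a position gave 164 E2F4 bins. The causes of these changes were not tested. No called bin held under 5 E2F4 or 11 H3K27me3 reads, so nothing is known of bins below that; how far depth sets the calls was not tested. No paired analysis was possible because each antibody has 1 library and no replicate numbers are shared, beyond the pairing by sequencing run above.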
